A study of Mus musculus with 244 samples.

Results

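The genes described here are the mitochondrially encoded ones, taken as every gene row of the count table whose symbol starts with mt-. There are 13 such rows among 25122, and all 13 had a value for every cell. They are the 13 protein-coding genes of the mouse mitochondrial genome. The annotation (GENCODE M21) places 37 genes on that molecule. The remaining 22 transfer RNA genes and 2 ribosomal RNA genes have no row in the count table, so these classes were not analysed here. The paper names a filter for protein-coding genes as a step of its analysis, and whether that is why these rows are missing is not given.

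All cells were taken on postnatal day 6 from follicles of CD-1, an outbred mouse strain, with no transgene and no treatment named in the labels. There were 59 oocytes (13 primordial, 19 transitioning, 20 primary and 7 secondary) and, of the somatic cells that surround the oocyte in the follicle, 40 primordial, 47 transitioning, 56 primary and 42 secondary ones. Follicles were staged under a microscope and taken apart with enzymes, and each cell gave 1 SMART-Seq2 library, a method that copies polyadenylated RNA and has no molecular identifiers. The libraries fall into 6 groups by the plate number in the deposited cell metadata, called plates below. A second plate code in the metadata splits plates 1, 2 and 4 into 3, 2 and 4 codes, so a plate here need not be 1 library plate. No animal is named for a cell, so a stage of a cell type on a plate counts as 1 sample, the cells in it are not replicates, and no p-value is given. Intervals are at 95% and cover counting error only, not PCR copies.

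Mitochondrial DNA is transcribed from both strands as long precursors that are cut into messenger, ribosomal and transfer RNAs, and most of the messengers receive a short poly(A) tail. All of its messengers encode subunits of the respiratory chain or of ATP synthase, while the polymerase, the transcription factors and the proteins of the mitochondrial ribosome come from nuclear genes. Growing mouse oocytes are known for a large number of mitochondria and of mitochondrial DNA copies per cell. A share of counts, as used here, says nothing of the amount of RNA in the whole cell, and these libraries do not allow an amount per cell to be given.

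Members of the list differ in how well reads can be assigned to them, because the nuclear genome holds pseudogenes copied from mitochondrial DNA. A search of the 13 transcripts against all annotated transcripts found 17 such copies of at least 90% identity over at least 100 bases. For 7 of the genes a copy reached 99% identity, and these 7 copies lie side by side on chromosome 1 within 4663 bases (chr1:24611535-24616197, GRCm38). The copies are Gm29216 of mt-Co1, Gm28661 of mt-Co2, Gm10925 of mt-Atp6, Gm28437 of mt-Co3, Gm28438 of mt-Nd3, Gm10222 of mt-Nd4l and Gm28439 of mt-Nd4. None of the 17 copies has a row of its own in the count table. The genes without a copy of that identity are mt-Nd1, mt-Nd2, mt-Atp8, mt-Nd5, mt-Nd6 and mt-Cytb.

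The start of mt-Co3, which encodes a core subunit of cytochrome c oxidase, is shown because its copy is identical over all 783 matched bases. Both sequences run 5′ to 3′, mt-Co3 from chrM:8607-8666 (plus strand) and Gm28437 from chr1:24613912-24613971 (minus strand), and they are taken from the GENCODE M21 transcripts.
mt-Co3: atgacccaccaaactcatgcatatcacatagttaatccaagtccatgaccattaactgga
Gm28437: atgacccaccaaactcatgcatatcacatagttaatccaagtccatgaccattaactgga

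The start of mt-Nd3, a small complex I subunit, holds the single base at which it differs from its copy over 345 matched bases. It is T3C, with positions counted from 1 at the 5′ end of mt-Nd3 and the mitochondrial base first, and it stands in capitals (chrM:9459-9481, plus strand, and chr1:24613097-24613119, minus strand).
mt-Nd3: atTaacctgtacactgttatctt
Gm28438: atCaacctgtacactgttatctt

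A stretch of mt-Co1, the catalytic subunit of cytochrome c oxidase, likewise shows the only difference over 483 matched bases, A1066T (chrM:6390-6413, plus strand, and chr1:24616165-24616188, minus strand, the differing base in capitals). This copy covers 31.3% of mt-Co1.
mt-Co1: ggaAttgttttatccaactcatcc
Gm29216: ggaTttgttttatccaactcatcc

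By contrast mt-Cytb, the cytochrome b subunit of complex III, can be told from its best copy. Gm11410 on chromosome 4 is 92.9% identical over 1142 bases. The window shown (chrM:14445-14504 and chr4:80004289-80004348, both plus strand) has 7 differences in 60 bases, in capitals.
mt-Cytb: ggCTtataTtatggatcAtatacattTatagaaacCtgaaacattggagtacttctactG
Gm11410: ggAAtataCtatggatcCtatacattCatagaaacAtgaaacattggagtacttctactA

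For 3 of the genes the annotated transcript ends 1 base into a codon, with a T that the poly(A) tail is known to complete to a stop codon. The last 12 bases of each are given with that T in capitals (plus strand, chrM:9379-9390 for mt-Co3, chrM:11533-11544 for mt-Nd4 and chrM:15277-15288 for mt-Cytb).
mt-Co3: gatgaggatctT
mt-Nd4: gcctgacaataT
mt-Cytb: aattatatccaT

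The deposited values are estimated counts, and they differed between the genes. An estimate that is not a whole number occurred for mt-Co1 in 69.3% of cells, for mt-Co2 in 62.7%, for mt-Atp6 in 36.9%, for mt-Co3 in 29.5%, for mt-Nd4 in 13.5%, for mt-Nd3 in 6.56% and for mt-Nd4l in 3.69%. For mt-Nd1, mt-Atp8 and mt-Cytb it occurred in 0 cells, for mt-Nd2 and mt-Nd6 in 1 cell each, and for mt-Nd5, whose best copy is 95.2% identical, in 8.61%. Of the genes with a near-identical copy, mt-Nd3 and mt-Nd4l thus lay below mt-Nd5 over all cells, and the other 5 above it. A count of 0 is a whole number, however, and mt-Nd3 and mt-Nd4l were at 0 in most cells. mt-Nd3 had 16 values that were not whole and 27 cells with 1 count or more. mt-Nd4l had 9 such values and 11 such cells. mt-Nd5 had 21 such values, with 1 count or more in 100% of cells. The place of mt-Nd3 and mt-Nd4l below mt-Nd5 thus rests on the cells at 0.

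Several of these genes were also present or absent as a whole from cell to cell. mt-Co3 reached 1 count in only 6.97% of cells, and in those it had between 62 and 2494 counts. In the cells with under 1 count of mt-Co3, mt-Nd1, a complex I subunit transcribed from the same strand, still had a median of 363 counts. mt-Nd3 reached 1 count in 11.1% of cells and mt-Nd4l, another small complex I subunit, in 4.51%. mt-Co2, a subunit of cytochrome c oxidase, was at 0 in 52 cells and at 22.7 counts or more in the others, with a median of 391. mt-Atp6, a membrane subunit of ATP synthase, was at 0 in 64 cells and had a median of 389 counts in the others. Unlike for mt-Co3, the cells at 0 had few mt-Nd1 counts. Their median of mt-Nd1 was 44 counts for mt-Co2 and 49 for mt-Atp6, beside 544 and 582 in the other cells. mt-Nd1, mt-Co1, mt-Nd5 and mt-Cytb were above 0 in every cell. How far reads of the genes with a near-identical copy were assigned to the copies was not tested. Levels of mt-Co1, mt-Co2, mt-Co3, mt-Atp6, mt-Nd3, mt-Nd4l and mt-Nd4 are thus uncertain. For mt-Nd4 such a copy covers 63.6% of the gene and for mt-Co1 31.3%. Neighbouring genes also share sequence: mt-Atp8 and mt-Atp6 overlap by 43 bases (chrM:7927-7969), mt-Nd4l and mt-Nd4 by 7 bases, and mt-Nd5 and mt-Nd6, on opposite strands, by 14 bases, and the use of strand in counting is not given in the sources used here.

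**Figure D1:**
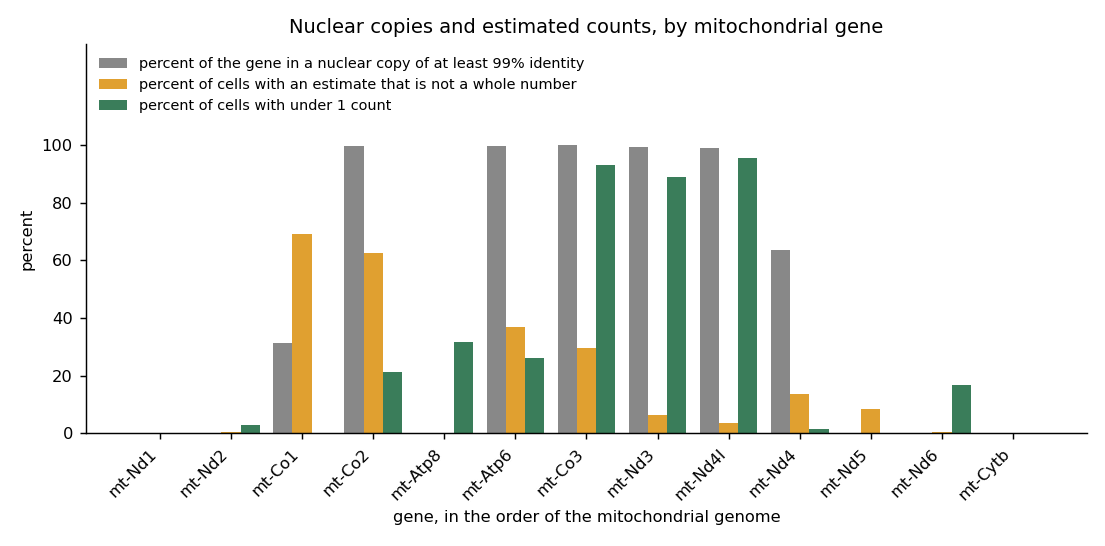
For each mitochondrial gene, in genome order, bars give the percent of its length within a nuclear copy of at least 99% identity (grey), the percent of cells whose estimated count is not a whole number (orange) and the percent of cells with under 1 count (green). mt-Co3, mt-Nd3 and mt-Nd4l, with nearly their whole length in such a copy, reach 1 count in 6.97%, 11.1% and 4.51% of cells.

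The total count per cell had a median of 96024 in oocytes (5440.2 to 801258) and 72279 in somatic cells (5150.2 to 409310). The labels were checked against marker genes, and the cell types did differ as labelled. Counts on a list of oocyte markers made up 1.06% in the median oocyte (0.201% to 8.38%) and 0.00305% in the median somatic cell (0% to 0.463%). A list of granulosa cell markers took 0.00802% in oocytes (0% to 0.0797%) and 1.95% in somatic cells (0% to 7.23%), and the authors had already removed cells that scored highly for the other type. Markers of stroma reached 6.04% in a somatic cell, and those of immune cells, endothelium and red blood cells stayed at or below 0.178%. For 2 somatic cells on plate 1 the title and the metadata give different stages, and the titles were followed.

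Mitochondrial transcripts took a smaller share of the counts in oocytes than in somatic cells on each of the 5 plates that held at least 5 of both. The share, called mt share below, is the percent of a cell's counts that fall on the 13 genes. On plate 6 it ran from 0.130% to 0.974% in 13 oocytes, with a median of 0.308%, and from 1.10% to 6.56% in 12 somatic cells, with a median of 2.92%. The ranges did not overlap, and the pooled share, from summed counts, was 0.42% in oocytes and 3.13% in somatic cells, a log2 ratio of -2.90 (-2.95 to -2.85). The oocytes of plate 6 were 3 transitioning, 8 primary and 2 secondary ones, and all but 1 of the somatic cells were secondary, so cell type and stage can largely not be told apart there. On plate 4, where all cells came from transitioning follicles, 15 oocytes ran from 0.462% to 5.22% (median 1.03%) and 16 somatic cells from 3.23% to 13.4% (median 6.30%). Here 13 of the 15 oocytes lay below the lowest somatic cell, and the pooled log2 ratio was -1.96 (-1.98 to -1.95).

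The remaining plates showed the same order with more overlap. On plate 5, 10 oocytes had a median of 0.612% (0.117% to 5.37%) and 66 somatic cells one of 4.26% (0.263% to 10.96%), a pooled log2 ratio of -1.42 (-1.44 to -1.39). A single primordial oocyte, replicate 13, held 65.2% of the mitochondrial counts of these oocytes, and without it the log2 ratio was -2.63. On plate 2, 8 oocytes, of which 7 were primordial and 1 primary, had a median of 3.46% (0.907% to 7.04%), and 32 primary somatic cells had one of 10.0% (5.16% to 18.9%), with a log2 ratio of -1.84. Cell type and stage cannot be told apart on plate 2. On plate 1, 13 oocytes had a median of 2.18% (0.881% to 10.5%) and 37 somatic cells one of 4.56% (1.98% to 21.97%), with a log2 ratio of -0.82, the smallest difference of the 5 plates. Of all pairs of an oocyte and a somatic cell of the plate, the oocyte had the lower mt share in 84.6% on plate 1, 96.1% on plate 2, 97.5% on plate 4, 88.8% on plate 5 and 100% on plate 6.

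Cells of the same stage could be set side by side on plates 1 and 5 as well as on plate 4. On plate 1 the 5 primordial oocytes had mt shares of 10.5%, 3.07%, 1.95%, 2.89% and 0.881%, and 19 primordial somatic cells ran from 2.17% to 18.5% with a median of 4.87%. The oocytes were low but for 1 cell, the ranges overlapped, and the log2 ratio was -0.60. The 7 primary oocytes of plate 1 ran from 0.946% to 3.91% (median 2.15%), and the 5 primary somatic cells had 2.90%, 3.15%, 3.06%, 2.67% and 2.45%. Their log2 ratio of -0.92 became -0.11 without primary oocyte replicate 1, the deepest oocyte of the plate. On plate 5 the 5 secondary oocytes had 1.25%, 0.807%, 1.63%, 0.476% and 0.598%, and 26 secondary somatic cells ran from 1.21% to 7.95% with a median of 4.35%. Here 3 oocytes lay below every somatic cell, and the log2 ratio was -2.10 (-2.16 to -2.05).

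The deposited metadata hold a second readout, the fraction of reads that are mitochondrial (pct_mito), whose denominator is not given in the sources used here. Its median in oocytes and somatic cells was 1.93% and 6.24% on plate 1, 1.24% and 3.89% on plate 2, 0.290% and 1.73% on plate 4, 0.501% and 1.95% on plate 5, and 0.365% and 1.37% on plate 6. The oocyte median was the lower one each time. Within a plate and cell type, pct_mito and the mt share ranked cells alike, with Spearman coefficients between 0.70 and 0.95 over groups of 8 to 66 cells. Both come from the same libraries. Single cells could still differ: the 2 primary somatic cells of plate 1 with the highest pct_mito, 13.5% and 13.7%, had mt shares of 2.90% and 3.15%.

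**Figure D2:**
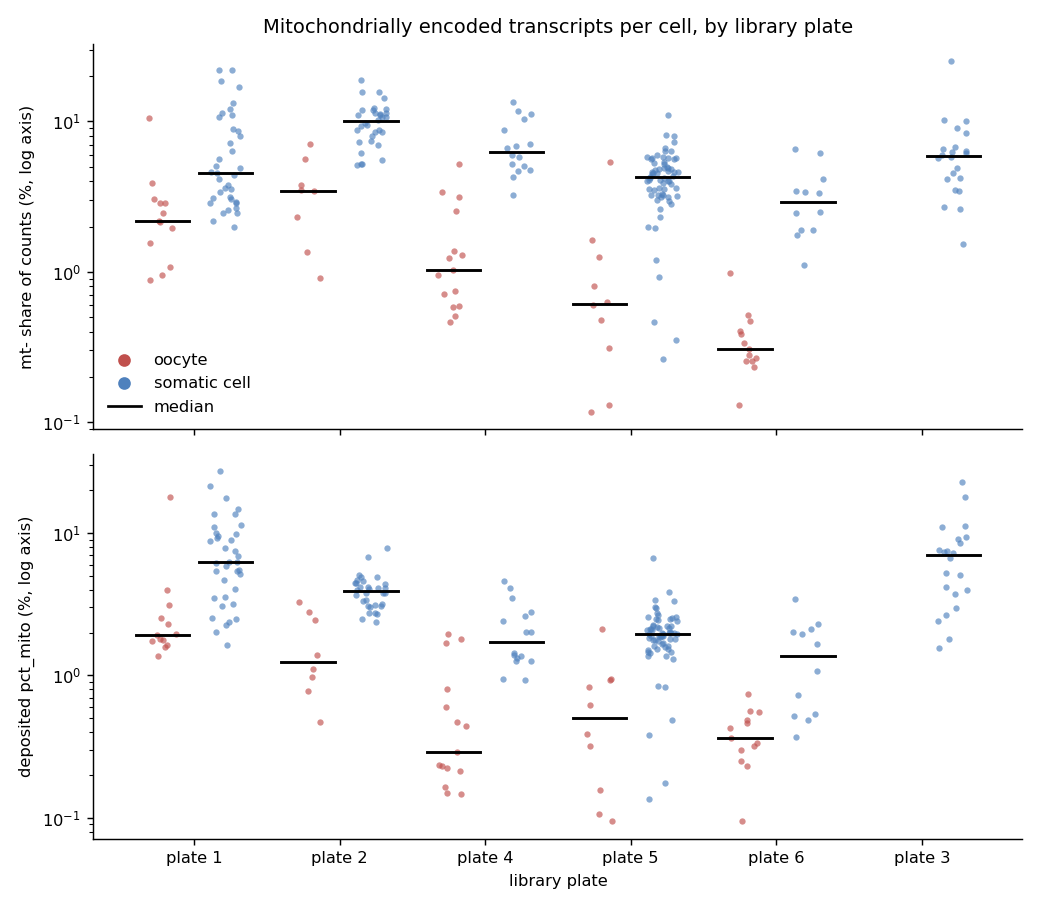
Each point is a cell, with oocytes (red) left of somatic cells (blue) at each plate number and black bars for the medians. The upper panel gives the share of counts on the 13 mitochondrial genes and the lower panel the deposited pct_mito, both in percent on log axes. The axis label library plate stands for the plate number of the metadata. The oocyte median is the lower one on plates 1, 2, 4, 5 and 6, and plate 3 held no oocytes.

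Other measures of the libraries moved with cell type. Over all plates, the deposited fraction named pct_ribo had a median of 10.1% in oocytes and 24.3% in somatic cells, that of intronic reads 5.37% in oocytes and 19.0% in somatic cells, and that of duplicate reads 16.4% in oocytes and 29.8% in somatic cells. By the second plate code of the metadata, most oocytes on plates 1, 2 and 4 had another code than the somatic cells. On plate 2 only 1 oocyte had the code of the somatic cells. Among cells with the same code, the 5 oocytes of plate 4 had a median mt share of 2.55% (0.591% to 5.22%) against 6.30% in its 16 somatic cells, a log2 ratio of -1.50. The 3 such oocytes of plate 1 had a median of 2.85% (0.946% to 10.5%) against 4.56% in 37 somatic cells, a log2 ratio of -0.85. On plates 5 and 6 all cells shared a code. Genes named by clones, together with Gm10800, took 18.5% to 44.5% of the oocyte counts and 5.56% to 17.5% of the somatic counts on these 5 plates. Without them in the totals the log2 ratio of the mt share was -0.58, -1.14, -1.60, -1.22 and -2.73 on plates 1, 2, 4, 5 and 6. The part of these read fractions and of the plate code in the result was not tested.

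The share of all genes that were lower in oocytes was itself large, and the mitochondrial genes have to be read against it. A gene was called lower or higher at a log2 ratio of pooled CPM (counts scaled to a common library total) of at least 1, among genes with a CPM of at least 5 in either group. For the members the minimum was instead over 3 summed counts in either group. On plate 5 mt-Nd4l, with 0 CPM in oocytes and 1.83 CPM in somatic cells, is thus among the 13 though it is under the CPM minimum. On plate 1, 5 of 13 mitochondrial genes were lower, against 43.2% of all genes tested. On plate 2, 10 of 13 were lower, against 60.9% of all genes, and on plate 5, 10 of 13 against 46.1%. On plate 4 it was 12 of the 12 with a ratio, against 54.2%, and on plate 6 11 of 11, against 51.9%. No member was called higher on these plates, where 21.2% to 26.9% of all genes were. At a log2 ratio of 1 the members' share was thus near that of all genes on plate 1 and above it on the other plates. On plates 2 and 5 it was not above that of all genes at a log2 ratio of 2. Within a stage, 5 of 12 members were lower in primordial cells of plate 1 (39.3% of all genes), 5 of 11 in primary cells of plate 1 (39.5%) and 9 of 11 in secondary cells of plate 5 (41.4%), with none higher (40.3%, 36% and 16.6%).

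The medians over members given next include bounds on every plate but plate 2, and that of plate 6 is itself the bound of mt-Atp8. The median log2 ratio of the members was -0.75, -1.98, -1.99, -1.50 and -3.09 on plates 1, 2, 4, 5 and 6, beside a median over all genes of -0.56, -2.36, -1.42, -0.80 and -1.18. Set against that median, the pooled mt share was lower in oocytes by 0.26 on plate 1, 0.55 on plate 4, 0.62 on plate 5 and 1.72 on plate 6 on the log2 scale, but on plate 2 it was higher by 0.52. With genes of a CPM of at least 100, a minimum chosen after the data were seen, the relative value was -0.67, -0.27, -1.06, -1.18 and -2.12 on the 5 plates, so on plate 2, where 4 of the 13 members lay below the median gene, the direction relative to other genes turned with the minimum. TMM scaling raised the log2 ratio of every gene by 0.24, 1.19, 0.76, 0.14 and 0.82 on plates 1, 2, 4, 5 and 6, and left the mt share lower in oocytes on all 5.

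The complex I subunits, which pass electrons from NADH to ubiquinone, are 7 of the 13 members. mt-Nd1 and mt-Nd2, both membrane subunits without a near-identical nuclear copy, were lower in oocytes by at least 1 on the log2 scale on all 5 plates, as was mt-Co2 of complex IV and no other member. For mt-Co2 this did not hold on plate 2 without primary somatic replicate 6, where the log2 ratio was -0.97. They lie at chrM:2751-3707 and chrM:3914-4951 (GRCm38, plus strand). For mt-Nd1, single oocytes of plate 6 ran from 76.4 to 435 CPM with a median of 280, and somatic cells from 439 to 7632 CPM with a median of 1461. The ranges did not overlap, and the pooled log2 ratio was -3.42 (-3.63 to -3.21). On plate 4 mt-Nd1 ran from 223.9 to 4175 CPM in oocytes (median 422) and from 1429 to 20948 CPM in somatic cells (median 4687), a log2 ratio of -2.72. On plates 1, 2 and 5 its log2 ratio was -1.47, -2.05 and -1.95. Leaving out any 1 cell kept mt-Nd1 and mt-Nd2 lower by at least 1 on each plate, though their values moved without 1 oocyte, for mt-Nd1 to -3.66 on plate 4 without transitioning oocyte replicate 6 and to -3.19 on plate 5 without primordial oocyte replicate 13. mt-Nd2 had its largest difference on plate 6, where oocytes ran from 0 to 55.6 CPM (median 14.2) and somatic cells from 125.03 to 1046 CPM (median 539). That log2 ratio of -4.54 (-5.28 to -3.88) rests on 20 counts in oocytes. On plates 1, 2, 4 and 5 mt-Nd2 had log2 ratios of -1.61, -1.80, -2.59 and -2.09, of which the last 2 were -3.43 and -3.18 without the same oocytes. On plate 2 mt-Nd1, mt-Nd2 and mt-Co2 all lay above the median of all genes, -2.36. TMM scaling raised every ratio of plate 2 by 1.19 and median-of-ratios factors by 1.37. With either of them, none of these genes was lower by at least 1 on plate 2.

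mt-Nd5 (chrM:11742-13565, plus strand), a large complex I subunit that takes part in proton pumping, was lower by at least 1 on 3 plates, with log2 ratios of -0.68, -1.98, -2.15, -0.87 and -2.29 on plates 1, 2, 4, 5 and 6. On plate 5 that value is set by primordial oocyte replicate 13, which held 71.7% of the oocytes' mt-Nd5 counts, and without it the log2 ratio was -2.38, so that 4 plates passed 1. On plate 4 it was -2.89 without transitioning oocyte replicate 6. There its oocytes ran from 351 to 15893 CPM (median 2367) and its somatic cells from 11148 to 34829 CPM (median 20896). mt-Nd4, another subunit of the membrane arm, had log2 ratios of -0.59, -1.90, -1.60, -1.42 and -3.02, with -2.33 on plate 4 and -2.73 on plate 5 without those 2 oocytes. mt-Nd6 (chrM:13552-14070), the only member encoded on the minus strand, was low throughout, with medians of 0 to 43.2 CPM in oocytes and 26.5 to 434 CPM in somatic cells, and had log2 ratios of -0.98, -2.75, -1.85, -1.07 and -2.47. On plates 1 and 5 it lies close to 1, and leaving out 1 cell moved it across, between -1.38 and -0.66 on plate 1 and between -1.93 and -0.92 on plate 5. On plate 4 it was -2.88 without transitioning oocyte replicate 6. Its interval was widest on plate 6 (-4.11 to -1.06), where it rests on 6 counts in oocytes and 17 in somatic cells. mt-Nd3 and mt-Nd4l had too few counts for a steady value. On plate 1 both had 0 counts in oocytes, against 27 and 102.1 counts in somatic cells, and with the floor set at 3 counts over the group the log2 ratios are bounds of at most -2.53 and -4.45.

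mt-Cytb (chrM:14145-15288, plus strand), the 1 member of complex III and the subunit that carries its hemes b, lay nearest to 0 on plates 1, 2 and 4 among the 4 members counted in every cell, while on plates 5 and 6 mt-Nd5 did. Without primordial oocyte replicate 13 of plate 5, mt-Cytb was at -2.13 there and mt-Nd5 at -2.38, so the order turned. On plate 2 its oocytes ran from 2313 to 16913 CPM with a median of 9843, and its somatic cells from 4080 to 19567 CPM with a median of 10381. The ranges overlapped almost fully there, and the log2 ratio was -0.33 (-0.35 to -0.31). On plates 1, 4 and 5 it was -0.59, -1.29 and -1.19. On plate 6 oocytes ran from 547 to 3122 CPM (median 1007) and somatic cells from 2781 to 20177 CPM (median 8186), a log2 ratio of -2.76.

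Of the complex IV subunits only mt-Co1 (chrM:5328-6872, plus strand) was counted in every cell. It had log2 ratios of -0.75, -3.10, -2.14, -1.65 and -3.08 on plates 1, 2, 4, 5 and 6, and on plate 5 -2.84 without primordial oocyte replicate 13. On plate 4 oocytes ran from 1263 to 8877 CPM (median 2343) and somatic cells from 9939 to 25501 CPM (median 17914), and on plate 6 from 290 to 2843 CPM (median 981) and from 4302 to 24676 CPM (median 8928), so the ranges did not overlap on either plate. mt-Co2 had log2 ratios between -1.40 on plate 4 and -4.44 on plate 6, where 1 oocyte alone had counts (48 in all). mt-Co3 was counted in so few cells that its values scatter widely, with a log2 ratio of 0.59 on plate 1 and -2.87 on plate 2 (-1.33 without primary somatic replicate 6), and bounds on the other plates. Of the ATP synthase subunits, mt-Atp6 had log2 ratios of -0.09, -2.20, -2.14, -1.50 and -3.82. It was at -3.25 on plate 4 without transitioning oocyte replicate 6, at -2.74 on plate 5 without primordial oocyte replicate 13, and at -2.66 on plate 6 without transitioning somatic replicate 46. mt-Atp8, the short subunit read from the same messenger, had -0.73, -2.43, -1.01 and -1.82 on plates 1, 2, 4 and 5, and 0 counts in oocytes against 13 in somatic cells on plate 6, a bound of at most -3.09. On plate 4 leaving out 1 cell moved it between -1.33 and -0.71. Its value on plate 5 rests on 3 counts in oocytes, all from primordial oocyte replicate 13, and 51 in somatic cells (-4.14 to -0.19).

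**Figure D3:**
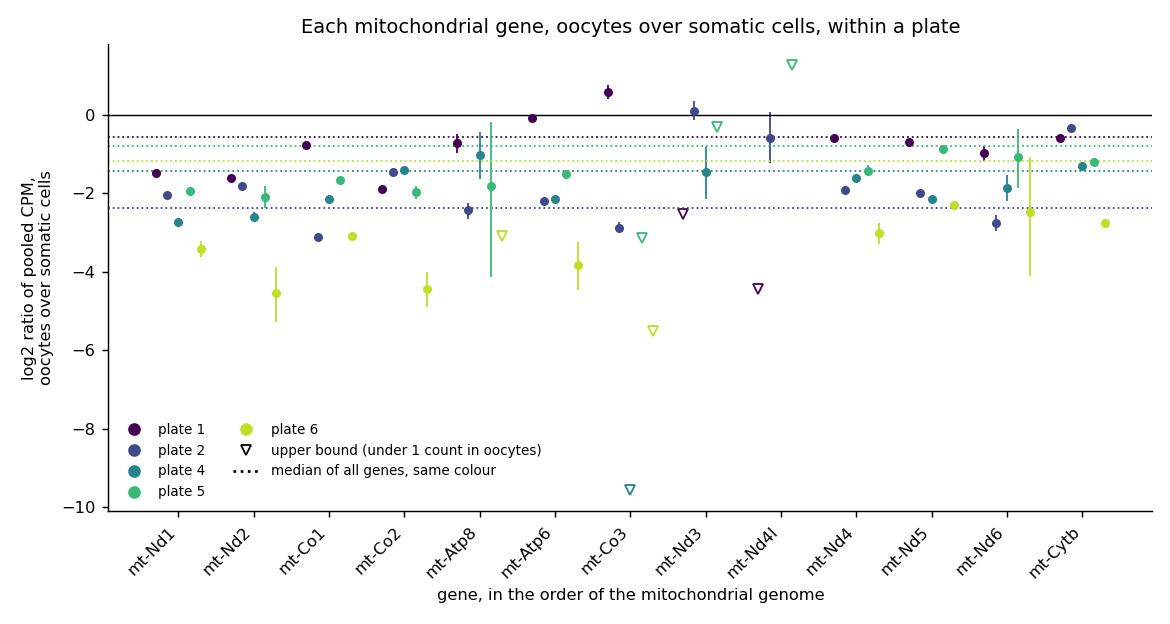
Points give the log2 ratio of pooled CPM, oocytes over somatic cells, for each gene (in genome order) on plates 1, 2, 4, 5 and 6, with bars for the 95% counting interval, open triangles for upper bounds where oocytes had under 1 count, and dotted lines for the median of all genes on the plate. mt-Nd1 and mt-Nd2 lie at or below -1.47 on each plate, mt-Cytb lies between -0.33 and -2.76, and the triangle above 0 (mt-Nd4l, plate 5) sets no direction because somatic cells had 6 counts.

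Ratios within the mitochondrial counts do not depend on nuclear genes in the denominator. mt-Cytb took a larger part of the pooled mitochondrial counts in oocytes than in somatic cells on all 5 plates: 20.6% in oocytes and 17.5% in somatic cells on plate 1, 28.5% and 10.0% on plate 2, 22.5% and 14.1% on plate 4, 26.9% and 23.03% on plate 5, and 32.8% and 29.9% on plate 6. mt-Nd1 took a smaller part in oocytes on all 5: 9.46% in oocytes and 14.9% in somatic cells on plate 1, 13.2% and 15.2% on plate 2, 5.85% and 9.91% on plate 4, 10.3% and 14.9% on plate 5, and 6.06% and 8.70% on plate 6. By the median over cells, mt-Nd1 on plate 6 took 8.03% in oocytes and 6.42% in somatic cells, so its direction turned there. Leaving out any 1 cell turned neither gene's direction on any plate.

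The ratio of mt-Cytb to mt-Nd1 counts in single cells, chosen after these values were seen, uses 2 genes without a near-identical copy. Its median was 1.82 in oocytes and 1.11 in somatic cells on plate 1, 2.40 and 0.746 on plate 2, 4.73 and 1.57 on plate 4, 2.94 and 1.68 on plate 5, and 4.45 and 4.04 on plate 6. The oocyte had the higher ratio in 73.8%, 94.9%, 87.5%, 85.5% and 51.3% of pairs on plates 1, 2, 4, 5 and 6, so on plate 6 the pairs split almost evenly. All 15 oocytes of plate 4 lay above the somatic median of the plate. The ratio also varied between plates within somatic cells, and what part plates play was not tested.

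By complex, complex IV took a smaller part of the mitochondrial counts in oocytes on all 5 plates, between 26.4% and 33.2% in oocytes and between 31.5% and 37.6% in somatic cells. Each complex IV member has a near-identical nuclear copy, and mt-Co2 was at 0 in a larger part of the oocytes than of the somatic cells. What part this plays in the composition was not tested. The difference on plate 4 was small, 31.1% in oocytes and 31.5% in somatic cells, and without transitioning oocyte replicate 6 the oocytes' part was the larger one by 6.53 percentage points. Complex I took the smaller part in oocytes on plates 1, 2 and 4 and the larger one on plates 5 and 6. On plate 5 this rests on primordial oocyte replicate 13, without which complex I made up 34.9% in oocytes and 37.3% in somatic cells. Plates differed as well: mt-Nd5 made up 26.2% of the mitochondrial counts in oocytes and 29.8% in somatic cells on plate 4, but 6.75% in oocytes and 7.44% in somatic cells on plate 2. The ATP synthase genes made up 17.1% in oocytes and 22.05% in somatic cells on plate 2, but 0.721% in oocytes and 1.45% in somatic cells on plate 6. For these genes the plates lay further apart than the cell types did within a plate, and levels are compared only within a plate.

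**Figure D4:**
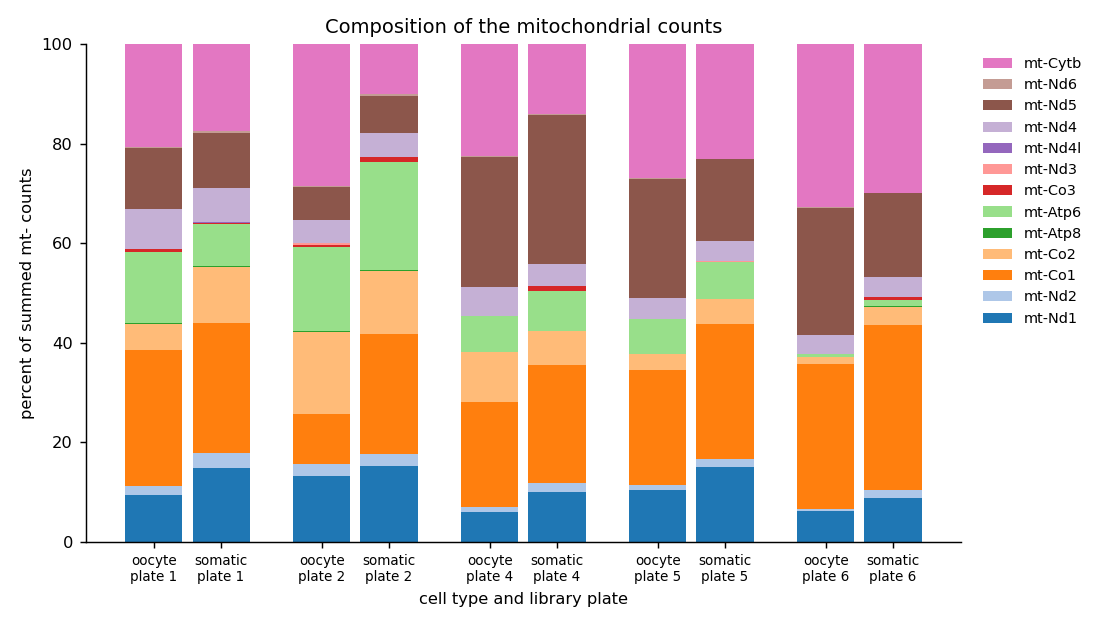
Stacked bars give each gene as a percent of the summed mitochondrial counts, with oocytes left of somatic cells for plates 1, 2, 4, 5 and 6. mt-Cytb (pink, top) takes 20.6% to 32.8% in oocytes and 10.0% to 29.9% in somatic cells, and the parts of mt-Atp6 and mt-Nd5 change more between plates than between the cell types.

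Per kilobase of transcript, the leading gene was shared by the cell types on 2 of the 5 plates. On plate 5 mt-Cytb led in both cell types, with 3709 CPM per kb in oocytes and 8475 CPM per kb in somatic cells, followed by mt-Co1 with 2354 and 7413 CPM per kb. On plate 6 the same pair led, mt-Cytb with 1205 CPM per kb in oocytes and 8166 CPM per kb in somatic cells and mt-Co1 with 791 and 6703 CPM per kb. mt-Nd6, mt-Nd3 and mt-Nd4l ranked 9 or lower among the 13 genes in every group. On plate 1 mt-Atp6 led in oocytes and mt-Co1 in somatic cells, and on plate 4 mt-Cytb led in oocytes and mt-Nd5 in somatic cells. On plate 2 mt-Cytb led in oocytes with 7770 CPM per kb, close to mt-Atp6 with 7715, while in somatic cells mt-Atp6 led with 35552 CPM per kb and mt-Cytb ranked 5.

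Stages of 1 cell type were compared within a plate. Among somatic cells of plate 1 the median mt share was 4.87% for the 19 primordial cells, 10.5% for the 8 transitioning cells, 2.90% for the 5 primary cells and 2.89% for the 5 secondary cells. The 8 transitioning cells ran from 3.54% to 21.97% and the 5 primary cells from 2.45% to 3.15%, so their mt shares did not overlap. The pooled log2 ratio of primary to transitioning cells was -1.54 (-1.56 to -1.52). By pct_mito these 2 stages did overlap, with 2.03% to 27.2% for transitioning cells and 3.06% to 13.7% for primary ones. The log2 ratio of their pct_mito medians was -1.14. The libraries differed as well: the median total count was 361900 in primary and 81408 in transitioning cells, and the median intronic fraction 16.96% in primary and 25% in transitioning cells. Over the 37 somatic cells of plate 1 the mt share and the total count had a Spearman coefficient of -0.75, and the part of depth and intronic reads in the stage difference was not tested. In that comparison 11 of 12 members were lower, against 33.2% of all genes, and 1, mt-Co3 with under 1 count in the transitioning cells, was higher, against 42%, while the median of all genes was 0.38. Primary against primordial cells gave -0.84, with 6 of 13 members lower against 41.6% of all genes and 1 higher against 32%. The pct_mito medians of these stages lay closer, at 5.83% for primary and 6.24% for primordial cells, a log2 ratio of -0.10. Transitioning against primordial somatic cells gave 0.70 (0.69 to 0.72), with overlapping ranges, 4 of 12 members higher against 28.2% of all genes, and 1, mt-Nd3, lower against 47.5%. mt-Nd1, mt-Nd2, mt-Co2 and mt-Atp6 had log2 ratios of 1.15 to 1.3 there, and mt-Co1 one of -0.01. The 5 secondary cells had 1.98%, 2.48%, 3.10%, 2.89% and 11.5%, and secondary over primary cells gave 0.18, which became -0.12 without secondary somatic replicate 5. The medians of pct_mito gave -1.21 for secondary over primary cells, at 2.52% and 5.83%. For transitioning over primordial cells they gave 1.05, the direction of the mt share. Why the readouts differ was not tested.

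Plate 1 alone held all 4 stages of somatic cells. On plate 6 the 1 transitioning somatic cell, at 6.56%, lay above all 11 secondary ones (1.10% to 6.12%, median 2.49%). On plate 5, which held no transitioning cells, the medians were 4.10% in 21 primordial, 4.32% in 19 primary and 4.35% in 26 secondary somatic cells. The pooled log2 ratio of primary to primordial cells was 0.41 (0.39 to 0.43), while the mean over single cells gave 0.11, and secondary over primary cells gave -0.08. In the first comparison 2 of 13 members were higher and 2 lower, against 34.1% and 27.1% of all genes, and in the second 0 were higher and 3 lower, against 28.6% and 21.5%. Both ratios are smaller than the SD between cells on the log2 scale, 1.12 and 0.53. The 22 transitioning somatic cells of plate 3 had a median of 5.89% (1.54% to 25.04%) and the 16 of plate 4 one of 6.30%, below the 10.5% of plate 1. Primary somatic cells had a median of 10.0% on plate 2, 2.90% on plate 1 and 4.32% on plate 5. Stage and plate cannot be told apart in these comparisons across plates.

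In oocytes the stages met in small numbers. On plate 1 the pooled log2 ratio of 7 primary to 5 primordial oocytes was -1.15 (-1.18 to -1.13), with 8 of 11 members lower against 34.1% of all genes, 1 higher against 15.2%, and a median of all genes of -0.56. It became -0.34 without primary oocyte replicate 1, which had 801258 counts and a mt share of 0.946%, so this difference rests on that cell. On plate 5 the 4 primary oocytes had 0.626%, 0.312%, 0.130% and 0.117%, the 5 secondary oocytes between 0.476% and 1.63%, and the 1 primordial oocyte 5.37%. Of the secondary oocytes, 3 lay above every primary one. On plate 6 the mt share was 0.130%, 0.467% and 0.515% in the 3 transitioning oocytes, 0.232% to 0.974% in 8 primary ones (median 0.293%), and 0.403% and 0.253% in the 2 secondary ones, all overlapping.

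**Figure D5:**
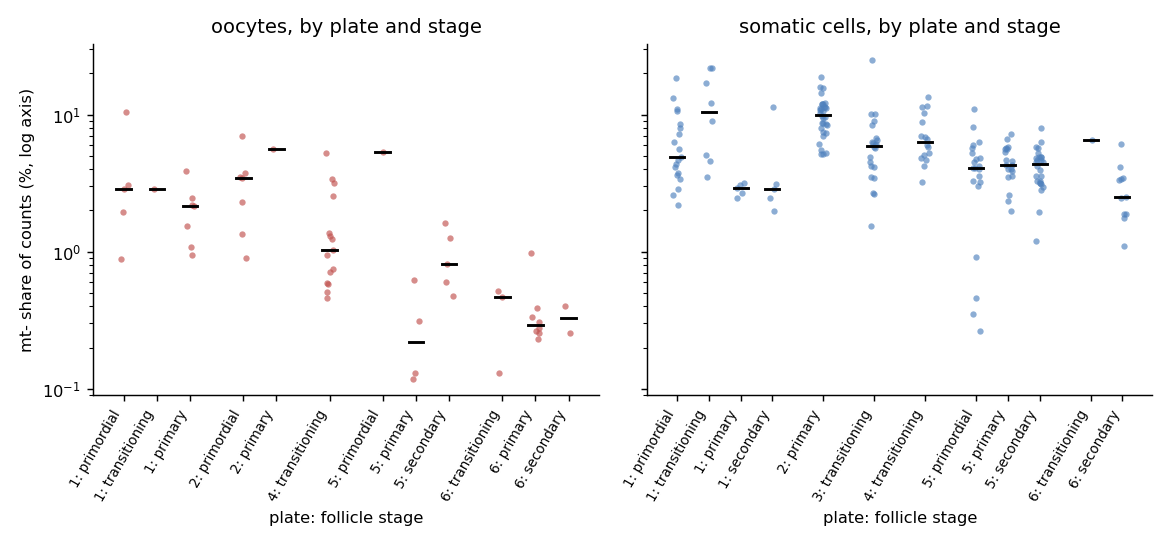
Each point is a cell, placed by plate and follicle stage, with the share of counts on the 13 mitochondrial genes in percent on a log axis and black bars for medians. Somatic cells of plate 1 reach a median of 10.5% in transitioning follicles and 2.90% in primary ones, while on plate 5 the medians of the 3 stages lie between 4.10% and 4.35%.

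Nuclear genes that act on mitochondrial DNA and its transcripts were taken from a list of 65, of which 61 have a row in the count table and 15 to 31 could be tested on a plate. Higher in oocytes were 8 of 31 on plate 1 (26.9% of all genes), 4 of 17 on plate 2 (23.2%), 3 of 15 on plate 4 (26.9%), 9 of 22 on plate 5 (21.6%) and 2 of 18 on plate 6 (21.2%). Lower were 4 of 31 (43.2%), 7 of 17 (60.9%), 1 of 15 (54.2%), 1 of 22 (46.1%) and 9 of 18 (51.9%) on the same plates. Their median log2 ratio was 0.39, -0.50, -0.32, 0.62 and -0.85, above that of the 13 mitochondrial genes on each plate. It was also above the median over all genes on each plate, which was -0.56, -2.36, -1.42, -0.80 and -1.18. Most members could be tested on 1 plate only. Among those past the fold there were Tfam, which packages mitochondrial DNA and starts its transcription, with a log2 ratio of 1.63 on plate 1, and Elac2, which cuts transfer RNAs out of the precursor, with 3.34 on plate 1. Ssbp1, which binds single-stranded mitochondrial DNA, had -3.17 on plate 6, and Pnpt1, an RNA-degrading enzyme, had -2.77 on plate 6. Esrra, a nuclear receptor that acts on genes of oxidative metabolism, was lower on both plates where it could be tested, with a log2 ratio of -2.54 on plate 2 and a bound of at most -1.97 on plate 6, where oocytes had 0 counts and somatic cells 6. Mterf2, of the mitochondrial termination factor family, ran from -3.09 on plate 6 (3 counts in oocytes and 13 in somatic cells, interval -5.54 to -1.22) to 1.74 on plate 1, and Ptcd2, an RNA-binding protein that acts on the Cytb messenger in mice, from -1.16 to 1.32. Mterf1a, a termination factor, had 1 count in oocytes and 5 in somatic cells on plate 6 (interval -8.86 to -0.13), or -1.71 with the oocytes' count set at the floor of 3, and a bound of at least 2.41 on plate 4, where somatic cells had 0 counts. These 3 genes were past the fold in both directions. Tfb1m, which methylates the small mitochondrial ribosomal RNA and was singled out after its values were seen, was higher in oocytes on 4 of 5 plates, with log2 ratios from 0.84 to 4.18.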

How the data were processed

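The deposited table holds 244 SMART-Seq2 libraries. Per the paper's methods the authors aligned reads to GRCm38, worked in Seurat 4, kept protein-coding genes and removed cells under a gene minimum. The deposited values are estimated counts per gene and cell, not normalized by the authors; the counter is not given in the sources used here. The deposited metadata hold each cell's fraction of mitochondrial, rRNA and intronic reads, printed as percent, and a 3′ bias score from the authors, of which no value is printed. A missing value was not counted as 0. Of 25149 rows, 27 with dates for names (0.0743% of counts) were left out.

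Each group's counts are the sum over its cells, scaled to CPM over the plate's listed genes. Ratios carry intervals from a binomial model of the rounded counts. Groups needed 5 cells. Cells are not replicates, so there is no test. Group sums under 3 counts were set at 3 in the calls over all genes, the nuclear list and bounds. The composition per cell used cells with at least 100 mitochondrial counts. Copies were sought with BLAST 2.17.0 among GENCODE M21 transcripts, not the genome. Scaling alternatives used edgeR 4.0.16 and DESeq2 1.42.0 (R 4.3.3), the rest Python 3.11.15. The ratio script was tested on simulated data. The genes, lists and comparisons were chosen with earlier results of these data known. The rule names every mt- gene, their nuclear copies, and members of the nuclear list past the fold in 1 direction on every plate tested or in both. Of the members past the fold in 1 direction only, not all are named in the text.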

Additional observations from a re-analysis of the deposited data

Results flagged for a closer look

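In groups of 4 to 10 cells of a stage, type and plate, a cell far from the others was sought in the mt share and in pct_mito, by its gap to the next cell relative to the range of the group. This marked 6 values among 20 groups and measures tested, each the highest of its group. The limit is set to mark about 1 in 20 groups of normally distributed values. These percents need not be so distributed and the measures rank cells alike, so the 6 values cannot be set against that rate. Primordial oocyte replicate 1 on plate 1 had a mt share of 10.5%, with the next cell at 3.07%, and a pct_mito of 17.9%, with the next at 2.53%. Without it the log2 ratio of primordial oocytes to primordial somatic cells on plate 1 was -0.91 rather than -0.60. Primary oocyte replicate 2 on plate 1 had a pct_mito of 3.13%, with the next cell at 1.96%. Primary oocyte replicate 15 on plate 6 had a mt share of 0.974%, with the next cell at 0.387%, and without it the log2 ratio of plate 6 was -3.30. Secondary somatic replicate 5 on plate 1 had a mt share of 11.5%, with the next at 3.10%, and a pct_mito of 9.96%, with the next at 3.15%.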

How the results depend on the processing

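The log2 ratio of the mt share between oocytes and somatic cells stayed below 0 under each alternative run. On plate 2 it was -0.65 with TMM scaling, -0.47 with median-of-ratios factors and -1.14 without clone-named genes and Gm10800, against -1.84. With median-of-ratios factors it was -0.997 on plate 4, -1.93 on plate 6 and -1.43 in secondary cells of plate 5, and with TMM -2.08 on plate 6. Without the deepest cell of each group it was -2.70 on plate 5 and -0.044 in primary cells of plate 1, where totals over genes listed on every plate gave -1.64. The count of mitochondrial genes lower in oocytes on plate 1, 5 of 13, was 11 by the mean of single-cell CPM, and 9 both in thinned cells and with totals over genes listed on every plate. On plate 2 it was 5 with TMM and 4 with median-of-ratios factors, and on plate 4 it was 7 and 6. At a log2 ratio of 2 it was 2, 6, 6 and 2 on plates 1, 2, 4 and 5. Of all genes 31%, 53.1%, 44.9% and 27.6% were lower by that much on these plates. The members' share was thus the smaller one on plates 1, 2 and 5, and both members on plate 1, mt-Nd3 and mt-Nd4l, are bounds. mt-Atp8 on plate 4 became 0.0799 by the mean of single-cell CPM. By the median over cells, mt-Cytb on plate 5 was 11.7 percentage points higher in oocytes, and mt-Nd1 on plate 6 was 1.61 points higher where pooled counts had it lower. Leaving out any 1 cell gave -1.01 to -0.57, -2.03 to -1.66, -2.52 to -1.86, -2.63 to -1.28 and -3.30 to -2.72 on plates 1, 2, 4, 5 and 6. Ratios between somatic stages of plate 5 changed sign under some scalings, all within the SD between cells. The cause of these changes was not tested. Alternatives that leave out single cells or use plate code, clone-named genes, cells that stand apart or a CPM of at least 100 were chosen after seeing the data. Adding counts of nuclear copies was not run, since none has a row. No paired analysis was possible because replicate numbers only number the cells of a stage and no result comes from a test. The lowest total, 5150.2 counts, limits genes of few counts such as mt-Nd6 and mt-Atp8.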
